A study of Mus musculus with 23 samples.

Results

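The genes described here are 33 genes of the lysosome, the acidic compartment in which cells break down proteins, sugars and lipids. They were chosen by name from the enzymes of the lysosomal lumen, the proteins of its membrane and the pump that acidifies it, and no measured value entered the rule, although earlier results of these data were known when it was made. They are 33 of the 55573 gene IDs in the table. Gene counts came from bulk RNA sequencing of the quadriceps, a thigh muscle made mostly of fast fibers, in 23 C57Bl6 mice (C57BL/6J in the study's methods). Male and female mice carried a pellet under the skin for 14 days, which held 50 mg corticosterone and 50 mg cholesterol in the corticosterone-treated mice and 100 mg cholesterol in the vehicle-treated mice. Mice use corticosterone as their main glucocorticoid. The groups were 6 vehicle-treated males, 6 corticosterone-treated males, 6 vehicle-treated females and 5 corticosterone-treated females, aged 8 to 10 weeks by the study's methods and fasted for 5 hours before tissue was taken. No group carried a genetic change, and both pellets contained cholesterol. Each mouse is named F or M for its sex, followed by its number in the labels.

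Lysosomal enzymes are made as inactive precursors, tagged with mannose 6-phosphate in the Golgi and delivered to the lysosome, where the low pH activates them. Cathepsins, the proteases of the lysosome, degrade proteins delivered by endocytosis and autophagy, and muscle wasting is accompanied by breakdown of fiber proteins through autophagy and the proteasome. Lysosomal enzymes are also abundant in macrophages, which take up and digest cell debris, so that RNA from whole muscle holds lysosomal transcripts of fibers and of the cells between them.

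Gene counts ran from 20904150 to 21984477 per mouse, so that depth differed little. Levels are given as CPM, that is, counts relative to the total of a mouse after scaling by edgeR's TMM factors. Markers of fast muscle fibers (Acta1, Ckm, Myh4, Myh1, Mylpf and Tnnt3) were high in every mouse, but their summed level was lowest in the corticosterone-treated females F10 (70586 CPM) and F6 (87115 CPM), against 110242 CPM or more in the other 21 mice. Female mice had 2410 or more counts of Xist and male mice 91 or fewer, which fits the sex in their labels. Liver transcripts (Alb, Apoa1, Apoa2, Ttr and Fgb) summed to 1017 CPM in F6, 2251 CPM in F10, 2284 CPM in M8, 1357 CPM in M9 and 1340 CPM in M12, against 287 CPM or less in the other 18 mice. Among corticosterone-treated females the summed level of the lysosomal genes was highest in F6, F2 and F10. Of these, F6 and F10 were among the mice with high liver transcripts, and F2 had 37.01 CPM of them. The part of liver transcripts in the lysosomal levels was not tested beyond the fits that left such mice out. Counts of calls are also given without the mice with liver transcripts.

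Among the lysosomal genes called in females 9 were higher and 1 was lower, while in males the shares called lay near or below those of all genes. In males corticosterone raised 2 of the 33 genes (Ctsl and Lamp1) and lowered 5 (Ctsk, Ctsh, Lgmn, Ppt1 and Asah1) at an adjusted p below 0.01 in edgeR's quasi-likelihood test. Of all 13049 genes tested in males, 13.2% were higher and 13.1% were lower. In females corticosterone raised 9 of the 33 genes (Ctsb, Ctsz, Ctsd, Ctsa, Glb1, Gusb, Npc2, Lipa and Atp6v1h), or 27.3%, where 7.4% of all genes were higher. It lowered 1, Ctsk, where 6% of all genes were lower. The median log2 fold change (log2FC) of the members was 0.00 in males, beside -0.02 over all genes tested, and 0.20 in females, beside 0.04 over all genes. Ctsk was the 1 gene called in both sexes, 6 were called in males alone, 9 in females alone and 17 in neither. A call in 1 sex alone does not show that the sexes differ, and that difference is tested separately further on. In bulk muscle RNA, fewer cells of a type and less RNA per cell cannot be told apart.

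**Figure D1:**
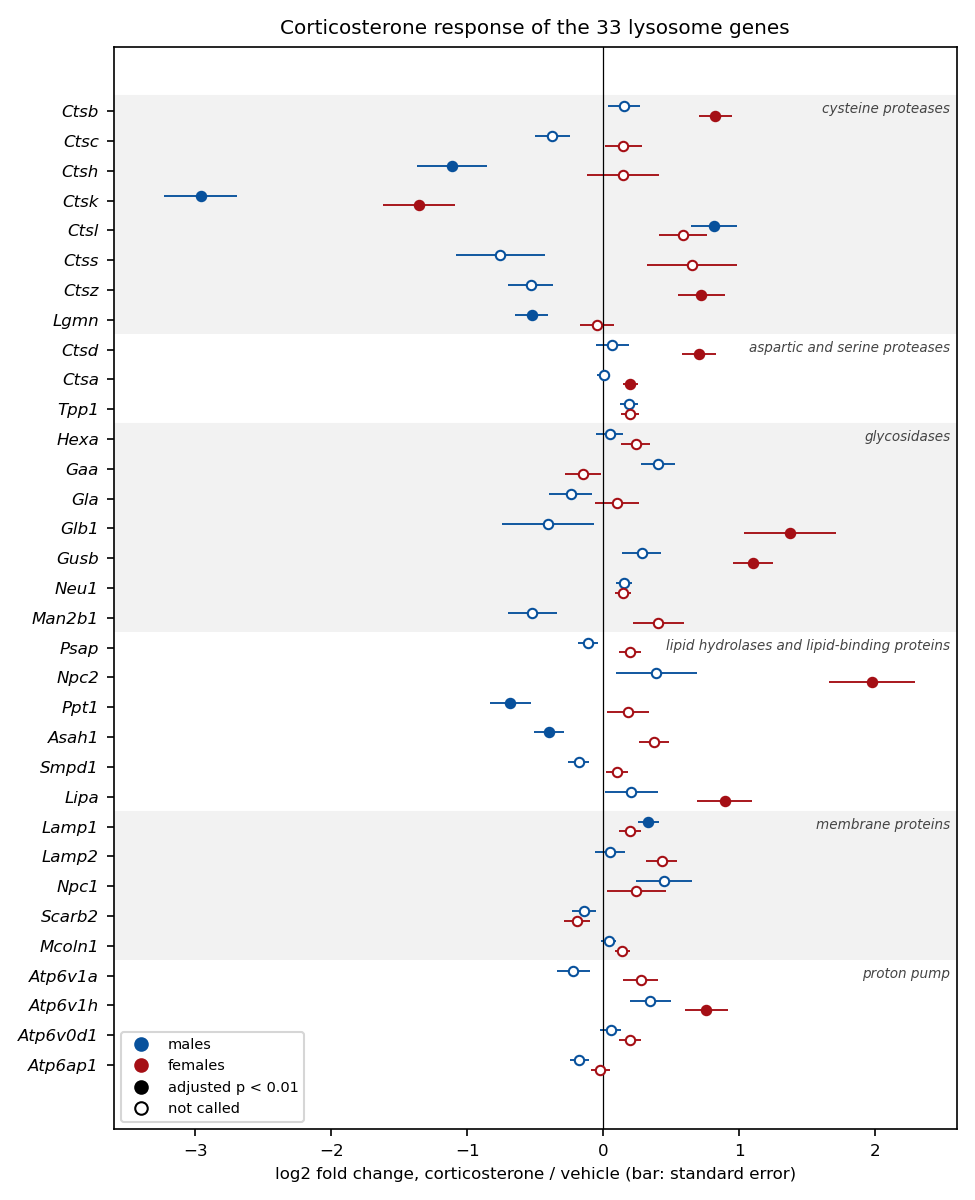
Log2 fold change of each of the 33 lysosome genes (rows, grouped by role) in corticosterone-treated against vehicle-treated males (blue) and females (red), with bars for the standard error and filled points for an adjusted p below 0.01. Ctsk lies lowest in both sexes, at -2.96 in males and -1.35 in females, and Npc2 highest in females at 1.98.

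The female calls rested on few mice. Without F6, or without F10, 6 members were called in females in place of 10 (7.69% and 9.23% of all genes, in place of 13.4%), and without F8 14 were called (18.1%). Without F10 and M8 together, the mice with the highest liver transcripts, 6 members were called (8.94% of all genes), and without all 5 mice with liver transcripts, a fit chosen after seeing the data, 3 were called: Ctsb, Gusb and Ctsk (3.53% of all genes). With the macrophage or with the adipocyte marker score as a covariate, 5 remained in each fit (4.71% and 5.51% of all genes), and these were Ctsb, Ctsd, Gusb, Npc2 and Ctsk. With the females fitted alone, 2 members, Ctsb and Gusb, were called (4.30% of all genes), and Ctsk was not. The share of all genes called thus fell in the same fits as the count of members. The female calls of Ctsk, Ctsd, Npc2 and Atp6v1h were lost in 1, 2, 2 and 4 of 33 other fits. Male counts ranged from 5 to 12 over the other tests, sample choices and covariates at this threshold. They were 5 with no gene filter (8.89% of all genes) and without the 5 mice (18.6%), and 12 by limma-voom (31.6%).

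Relative to gene length, the most abundant members in vehicle-treated mice were Psap at 374 CPM per kilobase of exon, Lamp1 at 180.5, Ctsd at 152, Ctsb at 68.6 and Gaa at 57.6. The least abundant were Lipa at 1.59, Gla at 1.42 and Glb1 at 1.03 CPM per kilobase. The list was thus led by the saposin precursor, a coat protein of the membrane and the proteases cathepsin D and B, and ended with an acid lipase and 2 galactosidases.

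Many lysosomal genes carry the 6-base element CACGTG near their start, which is bound by TFEB, a transcription factor that switches on lysosomal genes as a group. RefSeq promoter windows of 300 bases (250 before and 50 after the start, GRCm38.p6) were at hand for 28 of the 33 members, in 31 windows. CACGTG, which reads the same on both strands, was in 35.5% of these windows and in 7.15% of all 32851 windows. The longer TCACGTGA, each match of which also holds CACGTG, was in 19.4% of member windows and in 0.974% of all windows. The palindromic glucocorticoid response element (AGAACA, 3 bases of any kind, then TGTTCT) was in no member window and in 0.00913% of all windows, which says only that these letters are absent from these windows. The bases before the first annotated exon are printed 5′ to 3′ for 4 members that differ in response, with each CACGTG in capitals. They are Lamp1, called higher in males (chr8:13158911-13159160, plus strand), Glb1, called higher in females (chr9:114400828-114401075, plus strand), Gusb, called higher in females (chr5:130003050-130003299, minus strand), and Ctsk, called lower in both sexes (chr3:95498960-95499209, plus strand).
Lamp1: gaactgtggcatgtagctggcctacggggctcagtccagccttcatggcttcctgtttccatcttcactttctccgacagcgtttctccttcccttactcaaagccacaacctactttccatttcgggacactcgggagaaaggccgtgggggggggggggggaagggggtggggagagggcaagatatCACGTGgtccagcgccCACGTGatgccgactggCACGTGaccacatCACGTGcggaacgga
Glb1: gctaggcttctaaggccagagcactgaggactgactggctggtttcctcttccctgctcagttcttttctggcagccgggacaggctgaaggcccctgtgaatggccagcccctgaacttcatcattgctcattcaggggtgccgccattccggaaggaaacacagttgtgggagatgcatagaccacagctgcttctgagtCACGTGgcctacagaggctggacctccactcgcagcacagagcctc
Gusb: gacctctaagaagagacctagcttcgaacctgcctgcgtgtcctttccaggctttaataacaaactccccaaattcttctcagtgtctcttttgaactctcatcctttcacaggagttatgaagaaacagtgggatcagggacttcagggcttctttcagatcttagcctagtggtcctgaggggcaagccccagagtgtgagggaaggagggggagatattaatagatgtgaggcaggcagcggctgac
Ctsk: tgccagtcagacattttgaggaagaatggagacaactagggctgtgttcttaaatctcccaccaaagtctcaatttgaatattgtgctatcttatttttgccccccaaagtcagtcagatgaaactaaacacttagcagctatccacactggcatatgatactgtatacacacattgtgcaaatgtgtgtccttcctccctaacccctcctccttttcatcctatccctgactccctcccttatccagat
Lamp1 holds 4 copies in this stretch and Glb1 holds 1, whereas Gusb and Ctsk hold none. Members with CACGTG in a window were Atp6v0d1, Atp6v1a, Ctsa, Ctsd, Ctsl, Gaa, Gla, Glb1, Lamp1, Lgmn and Mcoln1. They included genes called higher in 1 sex and genes called in neither, and Lgmn alone was called lower, in males.

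Among the 8 cysteine proteases, males had 1 gene called higher and 3 called lower, and females had 2 called higher and 1 lower. Ctsk (ENSMUSG00000028111, chr3:95499256-95509362) encodes cathepsin K, a collagen-cutting protease best known from osteoclasts. In males it lay at 6.34 to 9.90 CPM (median 9.22) with vehicle and at 0.750 to 1.40 CPM (median 1.21) with corticosterone. In females it lay at 5.03 to 13.4 CPM (median 8.96) with vehicle, and at 1.77 (F2), 4.58 (F4), 4.36 (F6), 1.87 (F8) and 4.33 CPM (F10) with corticosterone. Every treated mouse lay below every vehicle-treated mouse of its sex. Ctsk fell in males (log2FC -2.96 ± 0.27, SE, adjusted p = 7.3e-08) and in females (-1.35 ± 0.26, SE, adjusted p = 0.00087), the difference between the sexes' responses having an adjusted p of 0.015. Collagen genes of fibroblasts moved the same way: Col3a1 fell in males from 256-385 CPM to 10.3-31.6 CPM and in females from 220-714 CPM to 33.3-193 CPM. Of the 6 listed fibroblast markers, 4 were called lower in males and 2 in females. All 6 had a negative log2FC in males, whereas in females 2 of 6 had a positive one, at most 0.26. The part of fibroblasts in the fall of Ctsk was not tested.

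Ctsl (ENSMUSG00000021477, chr13:64359337-64370890) encodes cathepsin L, a protease that is known to rise in wasting muscle. Male mice had 105 to 121 CPM (median 118) with vehicle and 135 to 285 CPM (median 204) with corticosterone, without overlap. Female mice had 134 to 235 CPM (median 152) with vehicle, and 252 (F2), 330.3 (F4), 277 (F6), 157 (F8) and 223 CPM (F10) with corticosterone. Ctsl rose in males (log2FC 0.81 ± 0.17, SE, adjusted p = 0.00061) to 1.76 times the vehicle mean. In females the change was of like size (0.59 ± 0.17, SE, adjusted p = 0.017) but missed the threshold, and the groups overlapped through F8 and F10. The difference between the responses was 0.23 ± 0.24 (SE) on the log2 scale, with an adjusted p of 0.54.

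Ctsb (ENSMUSG00000021939, chr14:63122462-63145923) encodes cathepsin B, the cysteine protease with the highest level per length here. In females it lay at 410.4 to 469 CPM (median 438) with vehicle, and at 838 (F2), 607 (F4), 977 (F6), 569.99 (F8) and 894 CPM (F10) with corticosterone, all 5 treated mice lying above all 6 vehicle-treated mice. In males it lay at 340.2 to 436 CPM (median 393) with vehicle and at 349 to 504 CPM (median 431) with corticosterone, with overlap. Ctsb rose in females (log2FC 0.82 ± 0.12, SE, adjusted p = 9.5e-05) to 1.77 times the vehicle mean, a call kept in all 33 other fits, and in males its log2FC was 0.15 ± 0.12, SE, adjusted p = 0.33.

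Ctsz (ENSMUSG00000016256, chr2:174427493-174439039) encodes cathepsin Z, a carboxypeptidase, and had log2FC values of opposite sign in the sexes. Female mice had 30.3 to 39.6 CPM (median 33.3) with vehicle, and 58.9 (F2), 39.9 (F4), 79.6 (F6), 31.002 (F8) and 73.5 CPM (F10) with corticosterone. Male mice had 31.2 to 40.8 CPM (median 38.3) with vehicle and 22.8 to 31.2 CPM (median 24.3) with corticosterone, all treated males lying below all vehicle-treated males, with M6 at 31.2 CPM just under M7. Among treated females F2, F6 and F10 lay well above the vehicle range, F4 just above it and F8 within it. The rise in females was called (log2FC 0.72 ± 0.17, SE, adjusted p = 0.0041), the male value of -0.53 ± 0.17 (SE) was not (adjusted p = 0.014). The male fall was called in 7 of 33 other fits, among them DESeq2, limma-voom and each sex fitted alone. The female call was lost in 11 of 33 other fits, among them those without F2, without F6, without F10, without F10 and M8 together and with either marker score.

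Ctsh (ENSMUSG00000032359, chr9:90054152-90076089) encodes cathepsin H, an aminopeptidase. Male mice had 11.4 to 22.9 CPM (median 17.2) with vehicle and 5.91 to 11.5 CPM (median 7.40) with corticosterone, overlapping only through M8 and M7. Female mice had 10.8 to 25.6 CPM (median 12.6) with vehicle, and 12.96 (F2), 14.3 (F4), 20.2 (F6), 9.40 (F8) and 28.4 CPM (F10) with corticosterone, which span the vehicle range. Ctsh fell in males (log2FC -1.11 ± 0.26, SE, adjusted p = 0.0017), and in females its log2FC was 0.15 ± 0.26, SE, adjusted p = 0.73. Lgmn, which encodes legumain, a protease that processes the cathepsins themselves, fell in males (log2FC -0.53 ± 0.12, SE, adjusted p = 0.0016), from 30.8 ± 6.44 to 21.3 ± 1.97 CPM (SD, n = 6 and 6) without overlap, and lay at 34.3 ± 3.13 and 33.3 ± 6.30 CPM in females (SD, n = 6 and 5). Ctsc (cathepsin C, which activates proteases of immune cells) and Ctss (cathepsin S, which serves antigen presentation) passed the threshold in neither sex. Ctss had a log2FC of -0.76 in males and 0.65 in females, and its treated females ran from 5.02 CPM in F8 to 22.7 CPM in F10.

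**Figure D2:**
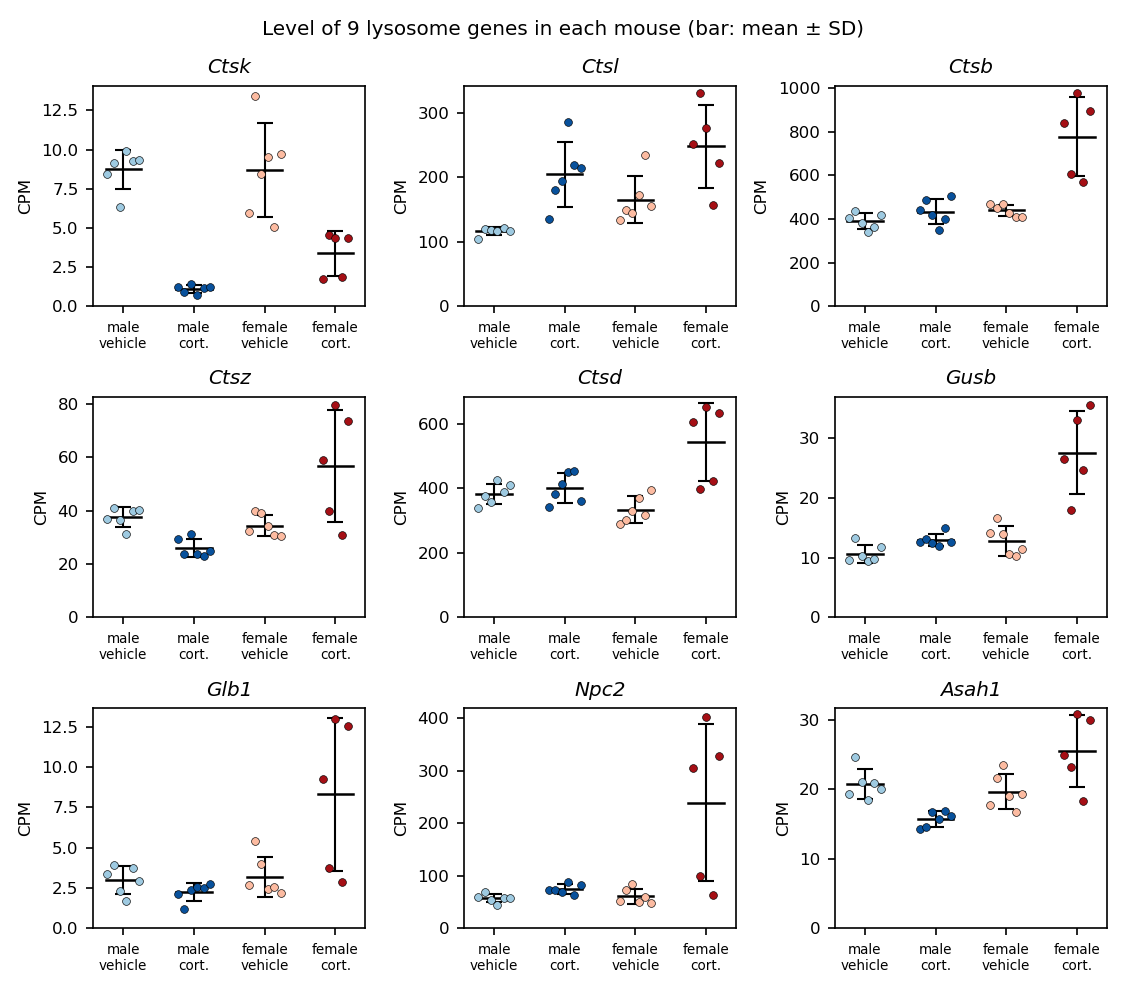
Level in CPM (vertical axes, from 0) of 9 lysosome genes in each mouse by group, with bars for the mean ± SD. Ctsk is lower with corticosterone in both sexes, Ctsl is higher in all treated males than in all vehicle-treated males, and F2, F6 and F10 make up the high values of Glb1, Npc2 and Ctsz among treated females, with F8 or F4 near the vehicle level.

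Of the 3 aspartic and serine proteases, 2 were called higher in females and none in males. Ctsd (ENSMUSG00000007891, chr7:142375911-142388038) encodes cathepsin D, the main aspartic protease of the lysosome. In females it lay at 288 to 395 CPM (median 324) with vehicle, and at 606 (F2), 399 (F4), 653 (F6), 424 (F8) and 632 CPM (F10) with corticosterone. All 5 treated females lay above all vehicle-treated females, F4 and F8 by the least. In males it lay at 338 to 426 CPM (median 381) with vehicle and at 342 to 454 CPM (median 397) with corticosterone. Ctsd rose in females (log2FC 0.70 ± 0.13, SE, adjusted p = 0.00047), and in males its log2FC was 0.07 ± 0.12, SE, adjusted p = 0.69. Ctsa, which encodes the protective protein of the sialidase and galactosidase complex, rose in females from 86.3 ± 4.92 to 99.1 ± 3.64 CPM (SD, n = 6 and 5; log2FC 0.20 ± 0.05, SE, adjusted p = 0.0086), a small change whose call was lost in 27 of 33 other fits. Tpp1, a peptidase that removes tripeptides from protein ends, had log2FC 0.19 in males and 0.20 in females and passed the threshold in neither (adjusted p = 0.021 and 0.03).

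Of the 7 glycosidases, which trim sugars from glycoproteins, glycolipids and glycogen, 2 were called higher in females and none in males. Gusb (ENSMUSG00000025534, chr5:129989011-130003049) encodes beta-glucuronidase. In females it lay at 10.2 to 16.7 CPM (median 12.7) with vehicle, and at 26.5 (F2), 18.1 (F4), 33.1 (F6), 24.7 (F8) and 35.6 CPM (F10) with corticosterone, all above the vehicle-treated mice, F4 being the lowest. In males it lay at 9.42 to 13.2 CPM (median 10.005) and at 12.002 to 14.9 CPM (median 12.6), with overlap. Gusb rose in females (log2FC 1.10 ± 0.15, SE, adjusted p = 3.1e-05) to 2.15 times the vehicle mean, and this call held in all 33 other fits.

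Glb1 (ENSMUSG00000045594, chr9:114401076-114474898) encodes beta-galactosidase, the enzyme behind the stain for senescent cells, and was the member with the lowest level per length. Female mice had 2.16 to 5.40 CPM (median 2.61) with vehicle, and 9.28 (F2), 3.76 (F4), 13.01 (F6), 2.90 (F8) and 12.6 CPM (F10) with corticosterone. F8 and F4 fell within the vehicle range, so that the groups overlapped, and F2, F6 and F10 lay above it. Male mice had 1.67 to 3.95 CPM (median 3.16) and 1.22 to 2.73 CPM (median 2.46). Glb1 rose in females (log2FC 1.37 ± 0.34, SE, adjusted p = 0.0053), with the call lost in 12 of 33 other fits, and in males its log2FC was -0.41 ± 0.34, SE, adjusted p = 0.35.

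Gaa, the acid alpha-glucosidase that degrades glycogen and is deficient in Pompe disease, was the most abundant glycosidase. It lay at 279 ± 50.7 CPM in vehicle-treated and 369 ± 52.6 CPM in corticosterone-treated males (SD, n = 6 and 6; log2FC 0.40 ± 0.12, SE, adjusted p = 0.014), and at 272 ± 38.1 and 245 ± 35.1 CPM in females (SD, n = 6 and 5; log2FC -0.15 ± 0.13, SE, adjusted p = 0.43). It was the 1 member with a positive log2FC in males and a negative one in females, and neither value passed the threshold. Man2b1, an alpha-mannosidase, had log2FC -0.52 in males and 0.40 in females (adjusted p = 0.026 and 0.11). Hexa (a beta-hexosaminidase subunit), Gla (alpha-galactosidase A) and Neu1 (a sialidase) had log2FC values from -0.24 to 0.24 over both sexes, none of them called.

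Among the 6 genes for lipid hydrolases and lipid-binding proteins, 2 were called lower in males and 2 higher in females. Npc2 (ENSMUSG00000021242, chr12:84754562-84773152) encodes a small protein of the lumen that hands cholesterol to NPC1 in the membrane. In females it lay at 48.003 to 84.97 CPM (median 54.9) with vehicle, and at 305 (F2), 100.1 (F4), 402 (F6), 63.2 (F8) and 327 CPM (F10) with corticosterone. F2, F6 and F10 lay far above the vehicle-treated females, F4 just above them and F8 among them. In males it lay at 45.1 to 68.6 CPM (median 57.4) and at 63.1 to 87.8 CPM (median 73.02). Npc2 rose in females (log2FC 1.98 ± 0.31, SE, adjusted p = 0.00016) to 3.93 times the vehicle mean, the largest rise of a member in either sex, and in males its log2FC was 0.39 ± 0.30, SE, adjusted p = 0.31.

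Lipa (ENSMUSG00000024781, chr19:34492318-34527474) encodes lysosomal acid lipase, which splits cholesterol esters and triglycerides. Female mice had 9.04 to 15.96 CPM (median 10.5) with vehicle, and 18.9 (F2), 15.7 (F4), 30.2 (F6), 11.6 (F8) and 30.2 CPM (F10) with corticosterone. F8 and F4 lay within the vehicle range and the others above it. Male mice had 8.54 to 11.96 CPM (median 9.69) and 9.34 to 13.7 CPM (median 11.6). Lipa rose in females (log2FC 0.89 ± 0.20, SE, adjusted p = 0.0026, a call lost in 7 of 33 other fits), and in males its log2FC was 0.21 ± 0.19, SE, adjusted p = 0.41.

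Ppt1 (ENSMUSG00000028657, chr4:122836242-122859175) encodes a thioesterase that removes palmitate from proteins. Male mice had 14.2 to 17.6 CPM (median 16.1) with vehicle and 6.96 to 11.9 CPM (median 10.4) with corticosterone, without overlap. Female mice had 13.4 to 19.2 CPM (median 15.6) with vehicle, and 16.8 (F2), 14.5 (F4), 24.2 (F6), 12.1 (F8) and 23.6 CPM (F10) with corticosterone, which lay on both sides of the vehicle range. Ppt1 fell in males (log2FC -0.68 ± 0.15, SE, adjusted p = 0.0012), and in females its log2FC was 0.18 ± 0.16, SE, adjusted p = 0.41. Asah1 (ENSMUSG00000031591, chr8:41340197-41374773) encodes acid ceramidase, which splits ceramide. Male mice had 18.5 to 24.7 CPM (median 20.5) with vehicle and 14.3 to 16.9 CPM (median 15.96) with corticosterone, and female mice had 16.8 to 23.5 CPM (median 19.2) with vehicle, and 24.9 (F2), 23.3 (F4), 30.9 (F6), 18.3 (F8) and 30.04 CPM (F10) with corticosterone. The male groups did not overlap and the female groups did. Asah1 fell in males (log2FC -0.40 ± 0.11, SE, adjusted p = 0.0061, a call lost in 10 of 33 other fits), and its female log2FC of 0.37 ± 0.11, SE, adjusted p = 0.018, was not called. Psap, the precursor of the saposins that present lipids to the hydrolases, and Smpd1, acid sphingomyelinase, were called in neither sex.

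Of the 5 membrane proteins, 1 was called in males and none in females. Lamp1, a heavily glycosylated protein that lines the membrane, rose in males from 489 ± 24.5 to 615 ± 27.6 CPM (SD, n = 6 and 6; log2FC 0.33 ± 0.08, SE, adjusted p = 0.0017) without overlap, and lay at 477 ± 46.8 and 546 ± 56.3 CPM in females (SD, n = 6 and 5; log2FC 0.20 ± 0.08, SE, adjusted p = 0.072). Lamp2, its partner and a receptor of autophagy, had a female log2FC of 0.43 ± 0.12 (SE) that narrowly missed the threshold, with an adjusted p of 0.0103. Npc1, the membrane protein to which NPC2 hands cholesterol, was called in neither sex for corticosterone (log2FC 0.44 in males and 0.24 in females). Scarb2, the carrier of glucocerebrosidase, and Mcoln1, a calcium channel of the lysosome, had log2FC values between -0.19 and 0.14, none called.

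The proton pump, a rotary ATPase that acidifies the lumen, had 1 of 4 subunits called, in females. Atp6v1h (ENSMUSG00000033793, chr1:5070018-5162529) encodes subunit H of the cytosolic part. Female mice had 17.4 to 21.7 CPM (median 18.96) with vehicle, and 35.9 (F2), 22.5 (F4), 45.99 (F6), 22.4 (F8) and 35.1 CPM (F10) with corticosterone. F4 and F8 lay just above the highest vehicle-treated female, and F2, F6 and F10 stood well above it. Male mice had 19.4 to 27.5 CPM (median 22.4) and 24.04 to 35.4 CPM (median 27.8). Atp6v1h rose in females (log2FC 0.76 ± 0.16, SE, adjusted p = 0.0016), and in males its log2FC was 0.35 ± 0.15, SE, adjusted p = 0.074. Atp6v1a, Atp6v0d1 and Atp6ap1, the other subunits listed, had log2FC values from -0.22 to 0.27 and were not called, so that the subunits did not share 1 call.

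Treated and vehicle-treated mice did not overlap for 2 members in the upward and 5 in the downward direction in males, Ctsz being below without a call and Ctsh called with overlap. Among all genes tested, 10.8% lay without overlap above and 11.1% below in males. In females the treated mice lay above without overlap for 5 members (Ctsb, Ctsd, Ctsa, Gusb and Atp6v1h), or 15.2%, where 3.38% of all genes did so. Ctsk lay below without overlap in females, as did 4.34% of all genes.

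Whether the sexes responded differently was tested by an interaction term. The log2FC was higher in females than in males for 27 of the 33 members (81.8%, beside 54.2% of all genes), and 12 of these had a positive log2FC in females and a negative one in males (36.4%, beside 20.6% of all genes). The interaction was called for 2 members, both lower in males: Ctsz (male minus female log2FC -1.26 ± 0.24, SE, adjusted p = 0.0078) and Asah1 (-0.77 ± 0.16, SE, adjusted p = 0.0099). Among all genes 0.322% were called lower and 0.368% higher in males. At an unadjusted p below 0.05 the interaction passed for 21 members (63.6%, beside 32.1% of all genes), 20 of them lower in males (60.6%, beside 18.9%). The calls of Ctsz and Asah1 were lost in 24 and 26 of 33 other fits. DESeq2 called 9 members and limma-voom 10, all lower in males (in either direction 6.87% and 5.31% of all genes, beside 0.69% in edgeR). No member was called without F10 and M8 (0.0307% of all genes) or with either marker score (0.00766% of all genes in each fit), so that almost no gene of any kind was called there. The next members in order of adjusted p were Ctsk at 0.015, and Gusb, Ppt1 and Ctsb at 0.02 each.

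**Figure D3:**
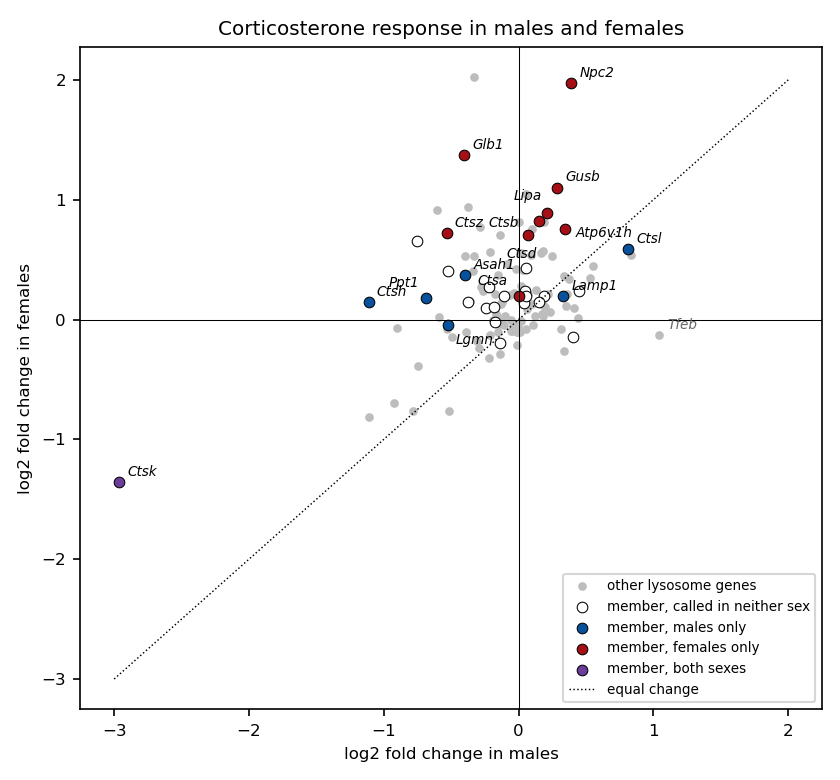
Log2 fold change with corticosterone in males (horizontal) and in females (vertical) for the 33 lysosome genes (outlined, coloured by the sexes in which they were called) and the other listed lysosome genes (grey), with a dotted line of equal change. Most members, 27 of 33, lie above that line, with Glb1 and Ctsz in the upper left, Ctsl close to the line and Tfeb, which is no member, far to the right.

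None of the 33 members was called between vehicle-treated males and females by edgeR (0.69% of all genes were higher and 0.268% lower in males), while 6 had an unadjusted p below 0.05 in edgeR, in DESeq2 and in limma-voom (18.2%, beside 13.2% of all genes in edgeR). DESeq2 and limma-voom each called 1 member (2.18% and 1.43% of all genes). Npc1 stood at 108 ± 23.5 CPM in vehicle-treated males and 55.7 ± 14.3 CPM in vehicle-treated females (SD, n = 6 and 6; male minus female log2FC 0.95 ± 0.21, SE, adjusted p = 0.015).

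With corticosterone, males were lower than females for 19 of the 33 members, or 57.6%, where 14% of all genes were lower, and higher for 2, Gaa and Npc1, where 9.31% were higher. The median male minus female log2FC of the members was -0.39, beside -0.03 over all genes. The cysteine proteases had 7 of 8 members lower in males, all but Ctsl, and the lipid group 5 of 6. Markers of several cell types differed in this comparison too. Called lower in males were 5 of 6 fibroblast (median log2FC -1.74), 3 of 3 Schwann cell (-1.69) and 7 of 10 macrophage markers (-1.25). Of 5 endothelial markers 1 was called lower, and all 5 adipocyte markers had a negative log2FC without a call (median -3.01). The 6 muscle fiber markers, none of them called, had a median of 0.47. The part of these cell types in the comparison was not tested beyond the fits with a marker score. Glb1 differed most (log2FC -1.88 ± 0.35, SE, adjusted p = 0.00047), followed by Npc2 (-1.68 ± 0.31, SE, adjusted p = 0.00048) and Ctsk (-1.60 ± 0.28, SE, adjusted p = 0.00029). Gaa was higher in treated males than in treated females (log2FC 0.59 ± 0.13, SE, adjusted p = 0.0018), as was Npc1 (1.15 ± 0.22, SE, adjusted p = 0.00063). This comparison uses the same treated mice as the responses above and is no separate evidence. Without F10 and M8 12 members were called (10.6% of all genes, in place of 23.3%), with the macrophage marker score 3 were called (Ctsa, Gusb and Atp6ap1; 1.79% of all genes), and without the 5 mice with liver transcripts 1 was called (2.22% of all genes). Whether both sexes were processed together is not given in the sources used here, so that a batch and the sex of the mice cannot be told apart in these comparisons.

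Mouse by mouse, the summed level of the 33 genes was 3877 ± 154 CPM in vehicle-treated females and 3872 ± 183 CPM in vehicle-treated males (SD, n = 6 and 6). It was 4134 ± 93.3 CPM in treated males (SD, n = 6). Among treated females it was 5285 (F2), 4712 (F4), 5723 (F6), 4237 (F8) and 5230.5 CPM (F10). All treated females exceeded the highest vehicle-treated female, at 4163 CPM, and F8 did so by the least. Abundant members weigh most in this sum. The median log2 ratio of the 33 members to the vehicle mean was 0.26 (F2), 0.11 (F4), 0.45 (F6), -0.05 (F8) and 0.38 (F10). F6 had 29 of the 33 members above the vehicle mean, F10 28, F2 27 and F4 25, whereas F8 had 14. Of the 3 mice with the highest sums, F6 and F10 had the lowest fiber marker sums of all mice and F2 did not (121850 CPM), and the part of fiber content was not tested. Treated males had 12 to 17 above theirs.

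**Figure D4:**
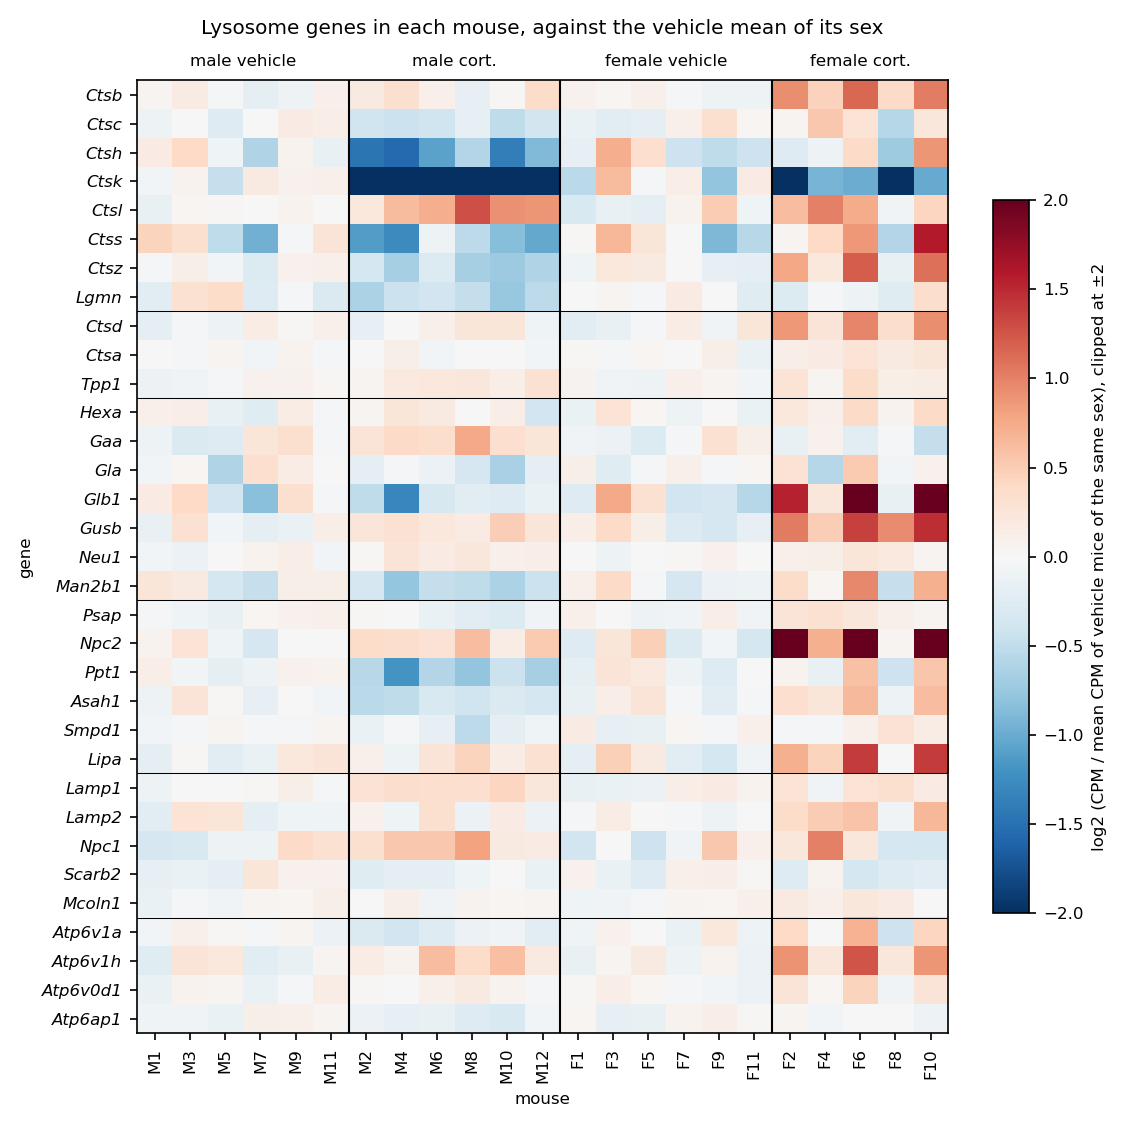
Log2 ratio of the level of each lysosome gene (rows) in each mouse (columns) to the mean of the vehicle-treated mice of its sex, with colours clipped at ±2. Ctsk is below the vehicle mean in all 11 treated mice, F2, F6 and F10 are above it for 27, 29 and 28 of 33 genes, and F8 for 14.

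Macrophage markers differed among the same females. The 10 listed markers (Adgre1, Csf1r, Cd68, C1qa, C1qb, C1qc, Mrc1, Cd163, Fcgr1 and Lyz2) summed to 122 to 266 CPM in vehicle-treated females and to 159 CPM in F8 up to 495 CPM in F10 among treated females. In males they summed to 90.4 to 288 CPM with vehicle and 119 to 184 CPM with corticosterone. None of the 10 was called for corticosterone in either sex by edgeR (7 in females and 3 in males had an unadjusted p below 0.05, DESeq2 called 4 and 1, and limma-voom 2 and none), but all 10 had a positive log2FC in females (median 0.96) and 9 of 10 a negative one in males (median -0.39). Between treated males and females 7 of 10 were called lower in males. No marker of the list was at 0 in any mouse. Their part in the higher lysosomal genes of treated females was not tested beyond the fits with the marker score.

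Adipocyte markers (Adipoq, Plin1, Cidec, Cfd and Lep) also ranged widely. They summed to 50.3 to 1560.2 CPM in vehicle-treated females, to 1641 (F2), 528 (F4), 3509 (F6), 24.8 (F8) and 1514 CPM (F10) among treated females, and to 27.4 to 488 CPM in vehicle-treated and 55.2 to 369 CPM in treated males. F8, the treated female closest to vehicle in lysosomal genes, had the lowest adipocyte and the lowest macrophage sum of its group, while F6 had the highest adipocyte sum and F10 the highest macrophage sum. The part of fat tissue in the calls was not tested beyond the fits with the marker score. Lymphocyte markers were too low to test, with the highest summed level at 2.20 CPM.

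**Figure D5:**
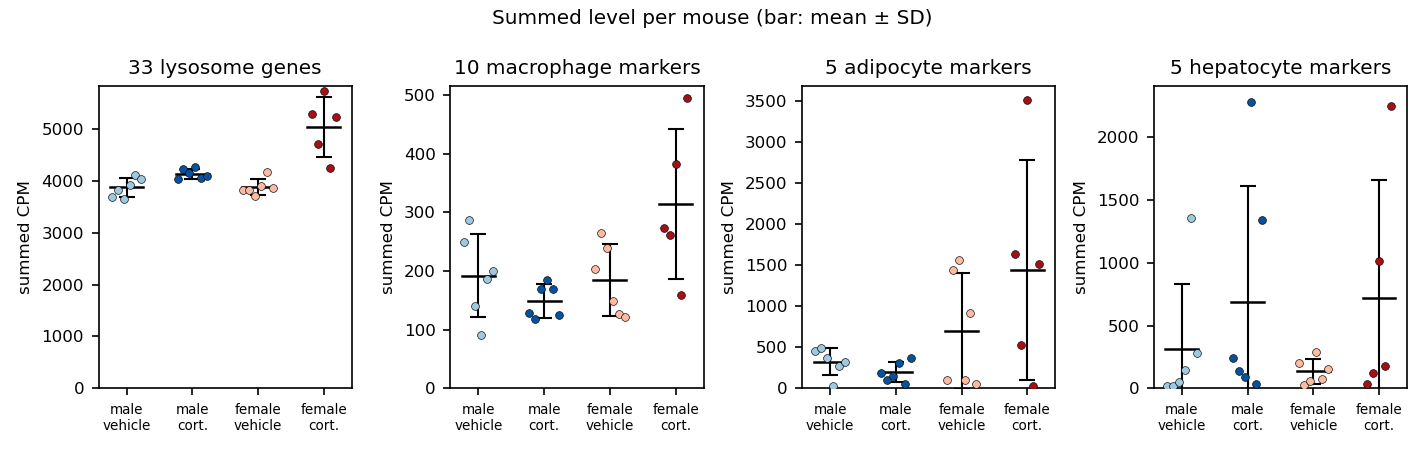
Summed CPM (vertical axes, from 0) of the 33 lysosome genes and of 3 marker lists in each mouse by group, with bars for the mean ± SD. Treated females lie between 4237 and 5723 CPM for the lysosome genes, above all other females, and have the highest macrophage sum (495 CPM) and adipocyte sum (3509 CPM) of all mice, while liver transcripts are high in 5 mice of 3 groups.

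Other genes of the lysosome, 94 in 6 lists, are read against the shares of all genes called, which were 13.2% higher and 13.1% lower in males and 7.4% higher and 6% lower in females. Of 26 further hydrolases, 8 were called higher in females (30.8%) and none lower, and in males 2 were called higher and 2 lower (7.69% each). Their median log2FC was 0.43 in females and -0.16 in males. In females their summed level was 393 to 464 CPM with vehicle. With corticosterone it was 606 (F2), 477 (F4), 799 (F6), 412 (F8) and 690 CPM (F10), so that F8 lay within the vehicle range. Whether calls in these 6 lists held in the other fits was not examined. In females the enzymes included Arsb (0.91 ± 0.24, SE, adjusted p = 0.0086) and Arsa (0.81 ± 0.20, SE, adjusted p = 0.0058), the sulfatases of dermatan sulfate and of sulfatide. Ids, the sulfatase lacking in Hunter syndrome, rose in both sexes (log2FC 0.55 ± 0.09, SE, adjusted p = 4e-05 in males and 0.45 ± 0.09, SE, adjusted p = 0.0011 in females). Aga and Prcp, an amidase of glycoproteins and a carboxypeptidase, fell in males (log2FC -0.53 and -0.75), and Idua, the iduronidase, rose there (log2FC 0.37 ± 0.09, SE, adjusted p = 0.0032).

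Of 20 further membrane proteins, 2 were called higher and 2 lower in males (10% each), and 1 each way in females (5% each), below the shares of all genes. Ostm1, a partner of the chloride transporter encoded by Clcn7, fell in both sexes. Vehicle-treated and treated males had 31.5 ± 3.40 and 18.2 ± 2.16 CPM (SD, n = 6 and 6; log2FC -0.79 ± 0.10, SE, adjusted p = 4e-06), and the females had 39.8 ± 5.15 and 23.4 ± 2.76 CPM (SD, n = 6 and 5; log2FC -0.77 ± 0.11, SE, adjusted p = 4e-05). Clcn7 itself rose in males (log2FC 0.22 ± 0.06, SE, adjusted p = 0.0043), as did the potassium and proton channel gene Tmem175 (log2FC 0.34), while Cln3 fell there (log2FC -0.31) and Cd164, a sialomucin, rose in females (log2FC 0.57). Of 13 further pump subunits, 1 was called in each sex (7.69%), Atp6v1d higher in males (log2FC 0.35) and Atp6v0e higher in females (log2FC 0.75).

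Of 13 genes that tag, sort and deliver lysosomal enzymes, 2 were called higher and 2 lower in males (15.4% each, near the shares of all genes), and 2 higher and 1 lower in females (15.4% and 7.69%). Gnptg, a subunit of the enzyme that adds the mannose 6-phosphate tag, rose in both sexes (log2FC 0.83 ± 0.10, SE, adjusted p = 2e-06 in males and 0.54 ± 0.10, SE, adjusted p = 0.00093 in females). Cln6, a membrane protein of the endoplasmic reticulum needed for export of lysosomal enzymes, fell in both (log2FC -1.11 ± 0.10, SE, adjusted p = 6.7e-08 and -0.82 ± 0.11, SE, adjusted p = 2.1e-05). The adaptor Gga1 rose and the sorting receptor Sorl1 fell in males (log2FC 0.44 and -0.90), and the adaptor Gga2 rose in females (log2FC 0.55).

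Of 15 tested transcription factors and nutrient sensors of the lysosome (Tfec did not pass the filter), 1 was called higher and 3 lower in males (6.67% and 20%), and 3 lower in females (20%). Tfeb rose in males from 72.3 ± 8.04 to 149 ± 27.4 CPM (SD, n = 6 and 6; log2FC 1.04 ± 0.16, SE, adjusted p = 2.3e-05) and lay at 86.1 ± 20.9 and 78.7 ± 16.8 CPM in females (SD, n = 6 and 5; -0.13 ± 0.16, SE, adjusted p = 0.59). It was the 1 gene of these 6 lists called for the interaction by edgeR (male minus female log2FC 1.17 ± 0.22, SE, adjusted p = 0.0081). Whether this call held in the other fits was not examined. Flcn and Fnip1, partners in the complex that signals amino acids to the Rag GTPases, fell in both sexes, Fnip1 by 0.93 on the log2 scale in males and 0.70 in females, and Flcn by 0.52 and 0.76. Of 4 tested cathepsin inhibitors, Cst3, which encodes the secreted cystatin C, was called lower in males (log2FC -0.39 ± 0.11, SE, adjusted p = 0.0058) and none in females.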

How the data were processed

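RNA of the quadriceps was sequenced from 23 mice as stranded mRNA libraries. According to the study's methods, the authors aligned read pairs with STAR 2.7.3a to mm10, counted pairs on single genes by strand with HTSeq 0.12.4 and an Ensembl annotation, and deposited raw counts per gene and mouse. Entries for unassigned reads, 10.7% to 15.3% of a mouse's pairs, were not used. Gene names came from a table of Ensembl IDs, which matched all 181 listed genes, and positions and exon lengths from GENCODE M21 (GRCm38). Gene counts ran from 20904150 to 21984477 per mouse, and no pair of replicates agreed within sampling noise (lowest chi-square per degree of freedom 15.0).

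Groups followed the labels' sex and treatment. Counts were tested in R 4.3.3 with edgeR 4.0.16 (quasi-likelihood test, TMM, 1 mean per group, all 23 mice) on 13049 genes. These exceeded 20 normalized counts in 4 or more mice of some group, a filter taken from the study. Benjamini-Hochberg adjustment ran over all 13049 genes, and adjusted p-values below 0.01 were called. CPM were computed from these counts with TMM-scaled library sizes. DESeq2 1.42.0, which the study used, and limma-voom (limma 3.58.1) with sample quality weights were alternatives, as were other filters, scaling and thresholds, marker scores as covariates, each sex alone, a block on mouse numbers, and fits that left out 1, 2 or 5 mice. The tests were checked on simulated counts.

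The members and lists were chosen with earlier results of these data known. Values in every mouse are given for members called for corticosterone in a sex, or for the interaction, whose log2FC exceeded 0.58 in size in at least 1 sex, and for those called for the interaction. Up to 2 genes per list, sex and direction were named from the other lists by the size of their log2FC among those called. Col3a1 was named after its values were seen. The replicates are separate mice.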

Additional observations from a re-analysis of the deposited data

Results flagged for a closer look

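In 4 of 132 sets of 1 member in 1 group, a single mouse lay apart from the rest of its group, where chance gives about 1 in 20 sets. Ctsl was 105 CPM in the vehicle-treated male M1, below the other 5 vehicle-treated males, which lay close together at 116 to 121 CPM. Among corticosterone-treated males, Gaa was 473 CPM in M8, the highest of its group, and Smpd1 was 54.1 CPM in M8, the lowest. M8 is 1 of the 5 mice with high liver transcripts. Ctsa was 85.8 CPM in M4, the highest of the treated males. Of these, only Ctsl was called in males, and its rise remained called in the fit without M1.

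The response to corticosterone differed between the sexes by the interaction test for Ctsz, with a male minus female log2FC of -1.26, and for Asah1, with -0.77. These calls were lost in 24 and 26 of 33 other fits. Both genes had a positive log2FC in females and a negative one in males.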

How the results depend on the processing

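No call changed its direction under any alternative. Shares in brackets are those of all genes called in the same fit. The count of members called in males was 7 by the test reported (26.3%). It was 2 with a log2FC beyond 1 required in addition (7.53%) and 14 at an adjusted p below 0.05 (39.8%). Limma-voom called 12 (31.6%), and with each sex fitted alone 11 were called (27.8%). Over the 23 fits that each left out 1 mouse it ranged from 6 (22.1% to 24.7%) to 10 (without F8, 27.9%). The count in females was 10 (13.4%). It was 4 with a log2FC beyond 1 (5.61%), 5 with the macrophage score (4.71%) and 5 with the adipocyte score (5.51%). It was 6 without F10 and M8 (8.94%) and 2 with each sex fitted alone (4.30%). Without the 5 mice with liver transcripts, a fit chosen after seeing the data, it was 3 (3.53%). Over the fits without 1 mouse it ranged from 6 (without F6, 7.69%, or without F10, 9.23%) to 14 (without F8, 18.1%). The count for the difference between the sexes' responses was 2 (0.69%). It was 1 with a log2FC beyond 1 (0.307%), 13 at an adjusted p below 0.05 (12.6%) and 1 with edgeR's filterByExpr (0.432%). DESeq2 called 9 (6.87%) and limma-voom 10 (5.31%). It was 0 with no gene filter (0.0313%), with either marker score (0.00766% each), without F10 and M8 (0.0307%) and without the 5 mice (0.0230%). Over the fits without 1 mouse it ranged from 0 (0.00766% to 0.659%) to 13 (without F8, 6.84%). Between vehicle-treated males and females, 0 members (0.958%) became 1 at an adjusted p below 0.05 (2.37%), by DESeq2 (2.18%) and by limma-voom (1.43%). Over the fits without 1 mouse the range was 0 to 1 (1 without F9, 0.843%, or without F4, 1.06%). Between treated males and females, 21 (23.3%) became 8 with a log2FC beyond 1 (7.77%) and 3 with the macrophage score (1.79%). They became 12 without F10 and M8 (10.6%) and 1 without the 5 mice (2.22%). Over the fits without 1 mouse the range was 14 (without F10, 14.4%) to 22 (without F8, 28.7%). The causes were not tested. Scaling by the median of ratios moved the median of all genes by 0.03 at most on the log2 scale.

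Mice of different sex share numbers, but mice of the same sex do not, so that no paired analysis was possible within a sex. Deviations of same-numbered mice correlated from 0.08 to 0.48 over the 6 vehicle pairs and from -0.38 to 0.24 over the 5 corticosterone pairs, 7 of 11 being over 0.1, and 8 of 22 mice correlated best with the mouse of their number, so that the numbers, which did not reach 0.1 in every pair, were not taken to pair the mice. With the replicate block, 0 members were called for the difference between responses (0.743% of all genes). In that fit 1 was called between vehicle-treated males and females (1.05% of all genes) and 14 between treated males and females (17.3%).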

Other observations

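Erythrocyte genes rose with corticosterone in both sexes. Of the 5 listed (Hba-a1, Hba-a2, Hbb-bs, Hbb-bt and Alas2), 4 were called higher in males and 4 in females, with median log2FC of 1.30 and 1.40. Their summed level was 104 to 204 CPM in vehicle-treated and 189 to 674 CPM in treated males, and 84.9 to 398 CPM in vehicle-treated and 293 to 602 CPM in treated females. The 1 neutrophil marker that passed the filter, S100a8, was called higher in both sexes, at levels no higher than 3.001 CPM in any mouse. Lep, which encodes the adipocyte hormone leptin, was at most 4.25 CPM in vehicle-treated females and ran from 3.20 to 660.1 CPM in treated females. In males Lep ran from 0.717 to 71.6 CPM with vehicle and from 12.8 to 73.5 CPM with corticosterone. Of the 5 adipocyte markers, 1 was called higher in females and none in males. In females 4 of the 5 had a positive log2FC and 1 a negative one (-0.77).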
